A study of Homo sapiens with 3 samples.

Results

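SOX9 and 7 other transcription factors of the pancreatic lineage (FOXA1, FOXA2, ISL1, GATA6, HES1, PDX1 and PTF1A) were examined in PANC-1 cells, an established human pancreatic ductal adenocarcinoma line. The genes were chosen by name, with earlier results of these data known. All probe sets that the platform annotation assigned to one of them alone were used. This gave 16 probe sets for 7 of the 8 genes, out of 54613 probe sets and 19775 named genes on the array. No probe set was assigned to PTF1A alone, and it was not analysed here.

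The series holds 3 stable PANC-1 lines, given no further treatment, with 1 Affymetrix array for each. The mutant JMJD3 line expressed a mutant of JMJD3, the wild-type JMJD3 line expressed the unmutated protein, and the control line carried an empty retroviral MSCV vector. JMJD3, encoded by KDM6B, removes methyl groups from lysine 27 of histone H3, a mark that Polycomb proteins place on silent developmental genes. The mutation, whether a line was a clone or a pool, and the vector of the JMJD3 lines are not stated in the labels. No line has a second array, so differences are given without a test or p-value, and having only 3 arrays limits their precision. The title of the series links wild-type JMJD3 to suppression of this tumour type.

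Pancreatic cells arise from foregut endoderm, where FOXA1, FOXA2 and GATA6 open and activate the genes of the lineage and PDX1 and PTF1A set pancreatic fate. SOX9 keeps progenitors undifferentiated and later marks duct cells. Notch signals act through RBPJ on HES1, a repressor that holds back differentiation, and ISL1 takes part in forming the endocrine cells of the islets.

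The promoters of 3 measured members are shown so that their motifs can be compared: HES1 alone of them held the RBPJ core of Notch target genes, ISL1 alone the GATA motif, and each a CCAAT box. RefSeq promoter sequences (assembly GRCh38.p14) were matched for 4 of the 8 genes, HES1, ISL1, GATA6 and FOXA1. Each line gives the 250 bases before the gene's start, 5′ to 3′ on the gene's strand, with motif matches in capitals. HES1 lies at chr3:194135898-194136147 on the plus strand, ISL1 at chr5:51383198-51383447 on the plus strand and GATA6 at chr18:22169339-22169588 on the plus strand.
HES1: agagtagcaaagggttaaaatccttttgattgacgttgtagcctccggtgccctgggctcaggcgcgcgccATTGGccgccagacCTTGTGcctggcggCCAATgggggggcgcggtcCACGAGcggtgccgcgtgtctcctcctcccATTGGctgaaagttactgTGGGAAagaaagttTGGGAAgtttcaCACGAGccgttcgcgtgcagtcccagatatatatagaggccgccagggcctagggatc
ISL1: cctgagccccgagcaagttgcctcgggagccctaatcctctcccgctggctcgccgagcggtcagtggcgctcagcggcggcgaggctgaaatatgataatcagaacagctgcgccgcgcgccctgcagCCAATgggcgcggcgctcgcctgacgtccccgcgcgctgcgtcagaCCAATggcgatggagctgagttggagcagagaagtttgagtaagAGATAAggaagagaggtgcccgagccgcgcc
GATA6: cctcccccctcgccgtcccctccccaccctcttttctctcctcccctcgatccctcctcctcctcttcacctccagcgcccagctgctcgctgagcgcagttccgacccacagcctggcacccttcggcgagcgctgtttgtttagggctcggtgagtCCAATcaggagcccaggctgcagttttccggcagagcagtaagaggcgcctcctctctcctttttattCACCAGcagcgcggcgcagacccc
Capitals in HES1 mark the RBPJ core TGGGAA, the N box CACNAG, which HES proteins bind, and the CCAAT box, each searched on both strands. In ISL1 they mark CCAAT and the GATA motif AGATAA, and in GATA6 they mark CCAAT and the N box. The HES1 promoter held 2 RBPJ cores, 3 N boxes and 3 CCAAT boxes, and none of these matches overlapped another. The RBPJ core had its first base at positions -84 and -70 from the start. Of 35116 promoters of the same length, 20.8% held at least 1 RBPJ core, 32.0% an N box, 32.0% a CCAAT box and 9.17% the GATA motif. The ISL1 promoter had 2 CCAAT boxes and 1 GATA motif, and the GATA6 promoter had 1 CCAAT box and 1 N box. A FOXA motif, TGTTTAC, was in none of these 4 promoters and in 2.98% of all. The windows of ISL1 (27), FOXA1 (26), HES1 (18) and GATA6 (16) held more CpG dinucleotides than the median promoter, which had 11. These matches describe the sequence and say nothing about binding in the cells.

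Signals were deposited as log2 values. Array medians were log2 5.49 with mutant JMJD3, 5.48 with wild-type JMJD3 and 5.50 in control, and the pooled median of 5.48 was used as a floor, below which a signal was not ranked. Of the 16 probe sets, 7 were over the floor in at least 1 array and 9 were not in any. A gene is described by its probe set with the highest mean, and it was called higher or lower from a 2-fold difference after flooring. Of the 9 probe sets under the floor, 4 held one and the same value in all arrays, as did 36.4% of all probe sets under it, so equal dim values do not show equal transcript levels. Where a fold is given with "at least", one array lay at or under the floor. A lower signal from fewer expressing cells and one from less RNA per cell cannot be told apart in these bulk samples.

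The labels were checked on KDM6B, which had 5 probe sets. Probe set 1556067_a_at read log2 6.45 with mutant JMJD3, 6.73 with wild-type JMJD3 and 5.53 in control. In the same order 1556066_at read 6.51, 6.75 and 6.02, and 41386_i_at read 6.88, 6.99 and 6.99. Probe set 213146_at held 5.12 in all arrays, under the floor. The brightest, 41387_r_at, read 7.65, 7.66 and 7.60, which is 1.04-fold over control in both JMJD3 arrays. By the rule used here, which takes the brightest probe set, KDM6B was not called higher in either. Its probe sets disagreed. Probe set 1556067_a_at was 2.3-fold over control with wild-type and 1.89-fold with mutant, and 1556066_at 1.66-fold and 1.4-fold. Probe set 41386_i_at was level with control in wild-type and 1.08-fold below it in mutant. Which of these probe sets the introduced sequence would reach is not stated in the labels. Of 8 epithelial markers, 7 were over the floor in every array (the exception was CDH1, under it in all), against 1 of 6 immune markers in every array and, of 6 endothelial markers, 2 with mutant JMJD3, 2 with wild-type JMJD3 and 1 in control. Of 8 fibroblast markers 3 were over it in every array, COL1A1, DCN and PDGFRB. Among 10 acinar genes 3 were over the floor in each array, and among 14 endocrine genes 1 with mutant JMJD3, 2 with wild-type JMJD3 and 1 in control.

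SOX9 had the highest differences of the members in both JMJD3 arrays. Its brighter probe set, 202936_s_at, read log2 8.40 with mutant JMJD3, 7.59 with wild-type JMJD3 and 5.81 in control. Both JMJD3 arrays were thus high and the control was close to the floor. The mutant array was 6.02-fold and the wild-type array 3.43-fold over control, and mutant exceeded wild-type 1.75-fold. The other probe set, 202935_s_at, read log2 7.23, 6.59 and 5.20 for mutant, wild-type and control. It kept the same order of arrays, with the control under the floor, which gives at least 3.36-fold for mutant and at least 2.16-fold for wild-type over control, and 1.56-fold for mutant over wild-type. Among all measured genes the SOX9 difference was the 10th highest of 12707 for mutant against control, and the 18th highest of 12697 for wild-type against control. In mutant against wild-type it stood 1212th of 12829. The ends of both identifiers mark probes shared with other transcripts, and SOX9 has no probe set without that mark here.

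ISL1, the LIM homeodomain factor of islet cells, was read by 1 probe set, 206104_at. It gave log2 8.15 with mutant JMJD3, 7.48 with wild-type JMJD3 and 7.13 in control. The signal was well over the floor in every array and highest with the mutant. Mutant was 2.03-fold over control, just past the 2-fold mark, while wild-type was 1.27-fold over control, and mutant was 1.59-fold over wild-type. The call for mutant against control was lost after quantile normalization (log2 difference 0.96) and when an offset replaced the floor (0.83).

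GATA6, the endodermal zinc finger factor whose loss marks the less differentiated pancreatic tumours, had its highest signal with wild-type JMJD3. Probe set 210002_at read log2 8.49 with mutant JMJD3, 8.93 with wild-type JMJD3 and 8.04 in control. It was the only measured gene of the 5 with the wild-type array on top at its brightest probe set. Wild-type was 1.85-fold and mutant 1.37-fold over control, and mutant was 1.36-fold below wild-type, so none of these reached 2-fold. The other probe set, 229282_at, held 5.08 in all arrays, under the floor.

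FOXA2, a forkhead pioneer factor of endoderm, was close to the floor. Its probe set 40284_at read log2 6.33 with mutant JMJD3, 6.19 with wild-type JMJD3 and 5.63 in control. The JMJD3 arrays lay within 0.14 of each other and both lay above control, by 1.62-fold for mutant and 1.47-fold for wild-type. Probe set 210103_s_at had the same order at 5.43, 5.38 and 5.12, all under the floor, and 214312_at held 4.72 throughout. With the floor at the 60th percentile the FOXA2 differences from control shrank to 0.16 for mutant and 0.02 for wild-type on the log2 scale.

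HES1, the Notch-induced repressor whose promoter is printed above, was bright in every array and differed little. Probe set 203394_s_at read log2 11.91 with mutant JMJD3, 11.77 with wild-type JMJD3 and 11.74 in control, a spread of 0.17. Probe set 203395_s_at read 10.22 with mutant, 9.55 with wild-type and 9.98 in control. The probe sets put mutant on top, by 1.13-fold and 1.18-fold over control, but they disagreed on the wild-type array, which was 1.02-fold above control in the first and 1.35-fold below it in the second. The direction for wild-type against control is therefore not settled. A further probe set, 203393_at, held 3.80 in all arrays.

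FOXA1 and PDX1 were under the floor in all arrays, so no fold is given. The brighter FOXA1 probe set, 204667_at, read log2 4.94 with mutant JMJD3, 4.94 with wild-type JMJD3 and 5.37 in control. PDX1, the homeodomain factor needed to form the pancreas, read 5.12 in every array at 208559_at, and its other probe sets lay between 3.63 and 4.72. At this signal neither gene's presence nor its absence can be read from the arrays.

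**Figure D1:**
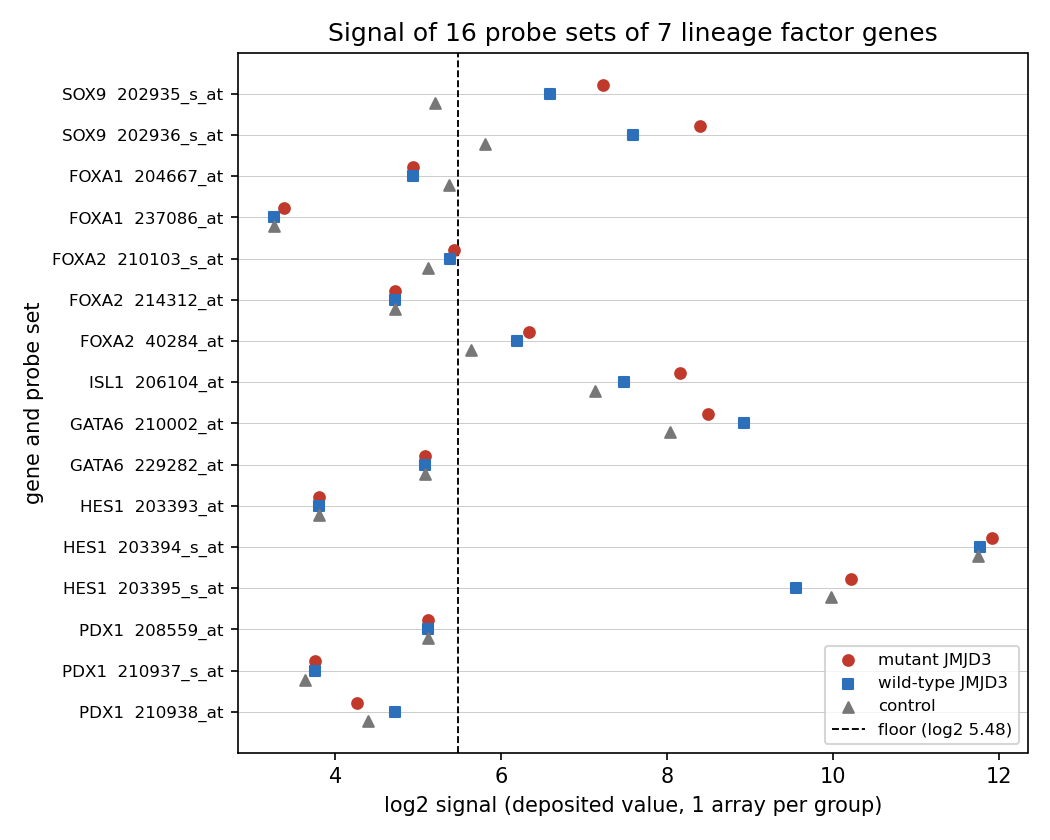
Deposited log2 signal (horizontal axis) of the 16 probe sets of 7 genes (vertical axis), with circles for mutant JMJD3, squares for wild-type JMJD3, triangles for control, 1 array each, and the floor at 5.48 as a dashed line. Both SOX9 probe sets run in the order mutant, wild-type, control from high to low, GATA6 has wild-type on top, and FOXA1 and PDX1 stay left of the floor.

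Of the 7 genes on the array, 5 were measured in each comparison, where a measured gene has at least 1 of both arrays over the floor. With mutant JMJD3 all 5 were above control, and SOX9 and ISL1 by 2-fold or more, which is 2 of 5, beside 2.98% of all 12707 measured genes. The median log2 difference of the 5 was 0.70, and that of all measured genes was 0.00, with 45.9% of them above control. Counted by probe set, 7 of 7 were above control, and 3 by 2-fold or more, beside 2.95% of all measured probe sets. The members were chosen with earlier results of these data known. The shares here and below are therefore not an independent comparison.

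With wild-type JMJD3 the 5 genes were again above control, HES1 by 0.03 only, and SOX9 alone passed 2-fold (1 of 5), beside 0.953% of all 12697 measured genes. The median of the 5 was 0.56 on the log2 scale, against 0.05 over all measured genes, of which 54.4% were above control. By probe set 6 of 7 were above control, and 2 by 2-fold or more, beside 0.71% of all. Both comparisons use the same control array, so a low or high control value moves a gene the same way in each.

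Between the JMJD3 arrays 0 of 5 differed by 2-fold, beside 8.81% of all 12829 measured genes that did in either direction. SOX9 (0.81), ISL1 (0.67), FOXA2 (0.14) and HES1 (0.14) were higher with mutant on the log2 scale, and GATA6 (-0.44) was lower. The median was 0.14, and 0.00 over all measured genes. At the second HES1 probe set the difference was 0.67. By probe set 0 of 7 passed 2-fold, beside 9.16% of all measured probe sets.

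**Figure D2:**
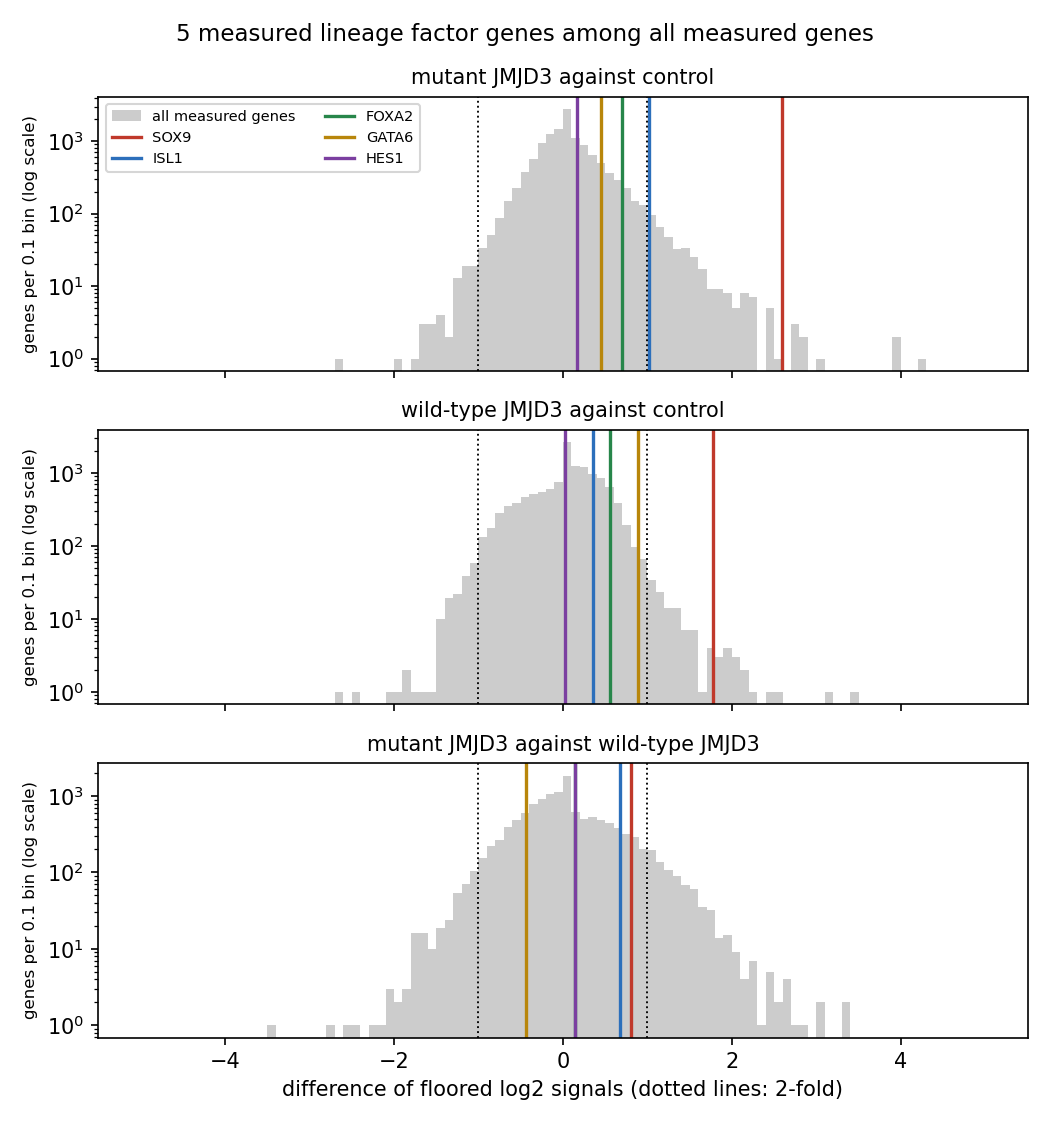
Histograms of the difference of floored log2 signals over all measured genes (grey, horizontal axis in log2 units, vertical axis genes per 0.1 bin on a log scale) in each comparison, with coloured lines at the 5 measured lineage factors and dotted lines at 2-fold. SOX9 lies at 2.59 and 1.78 in the comparisons with control and at 0.81 between the JMJD3 arrays, where the lines of FOXA2 and HES1 fall together at 0.14.

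The genes most like SOX9 were taken as those with the nearest pair of differences from control among 8583 genes with a bright signal (over log2 7.59) in at least 1 array. With 3 arrays the likeness rests on 2 differences that share the control. They were RAB31, a small GTPase of vesicle traffic, ALOX5, the 5-lipoxygenase gene, MAGED1, HMGA2, an architectural chromatin protein, and KRT19, the keratin of duct cells. RAB31 read log2 9.42 with mutant JMJD3, 9.34 with wild-type JMJD3 and 7.21 in control, and its 3 probe sets gave 2.04 to 2.36 for mutant and 2.13 to 2.20 for wild-type minus control. KRT19 read 7.73, 8.0 and 5.55 in that order of arrays, so that, unlike SOX9, it was not highest with the mutant. Its other probe set was under the floor in all arrays, and the median over both gave differences from control of 0.30 for mutant and 0.47 for wild-type. HMGA2, at 8.34, 7.17 and 6.09, had the SOX9 order, in 1 probe set over the floor of 9.

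Other measured factors of the pancreatic lineage had smaller differences from control than SOX9. Few of all measured genes reached its size, as SOX9 stood 10th highest of 12707 with mutant and 18th of 12697 with wild-type JMJD3. Of 32 such factors listed, 24 were on the array and 11 were measured. With mutant JMJD3 7 of the 11 were above control, 3 below and 1 level, none by 2-fold, with a median of 0.13. Beside this, 2.98% of all measured genes were 2-fold or more higher and 0.535% lower. With wild-type JMJD3 5 were above and 5 below, with a median of 0.00, and 0.953% of all measured genes were 2-fold or more higher and 1.31% lower. SOX17, an endodermal SOX factor, was the only one of the 11 past 2-fold with wild-type. It read log2 5.59 with mutant, 6.58 with wild-type and 5.54 in control (2.06-fold for wild-type over control). That call was lost with the floor at the 60th percentile (log2 difference 0.41), with the offset (0.62) and with the median over its probe sets (0.10). ONECUT2, a relative of the duct and endocrine factor HNF6, was 2.17-fold higher with mutant than with wild-type JMJD3, at log2 8.98 with mutant, 7.86 with wild-type and 8.51 in control. It had the same order in 2 more of its probe sets, 239911_at (8.49, 7.53 and 8.38) and 233446_at (8.31, 7.48 and 8.16), and was level at 6.21 in 207676_at. The 2-fold call was lost with the median over probe sets (0.83) and with the offset (0.99). HHEX, which precedes PDX1 in the foregut, read log2 7.64, 7.29 and 7.04 for mutant, wild-type and control, the same order as SOX9, and MEIS2, a partner of PDX1, read 9.55, 9.64 and 10.22, below control in both JMJD3 arrays. Neither reached 2-fold.

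Of the SOX family without SOX9, 8 of 17 were measured. With mutant JMJD3 2 of the 8 were above control and 4 below, with a median of -0.02, and with wild-type JMJD3 5 were above and 3 below, with a median of 0.09. SOX4 read log2 11.59 with mutant, 11.22 with wild-type and 11.43 in control. SOX10, a close relative of SOX9, read 5.51, 5.75 and 5.67, near the floor. GATA relatives and their cofactors had 6 measured members for mutant against control, none past 2-fold, with GATA2 at 8.17 with mutant, 8.36 with wild-type and 8.17 in control. In that comparison 2.98% of all measured genes were 2-fold or more higher and 0.535% lower.

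Among 26 measured forkhead genes other than FOXA1 and FOXA2, 0 passed 2-fold with mutant JMJD3 against control. Beside this, 2.98% of all measured genes were 2-fold or more higher and 0.535% lower, so a count of 0 is little different. With wild-type JMJD3, FOXQ1, a forkhead factor of epithelia, was 2.07-fold over control and FOXP2 2.64-fold under it. FOXQ1 read log2 9.57 with mutant, 11.32 with wild-type and 10.27 in control, and was 3.36-fold lower with mutant than with wild-type. FOXP2 read 8.31 with mutant, 6.84 with wild-type and 8.24 in control, and its probe set 243278_at had the same pattern (7.63, 6.12 and 7.51). FOXO1 was 2.17-fold higher with mutant than with wild-type JMJD3, a call lost with the offset (log2 difference 0.93) and with the median over probe sets (0.66).

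The Notch pathway around HES1 had 28 measured genes for mutant against control, 15 of them above control and 10 below, with a median of 0.02. The 2 past 2-fold were DLL3, a ligand that inhibits Notch (2.17-fold), and HES4, a repressor related to HES1 (2.06-fold). Among all measured genes 2.98% were 2-fold or more higher. DLL3 read log2 9.0 with mutant, 9.11 with wild-type and 7.88 in control at 219537_x_at, but its other 3 probe sets differed from control by 0.00 to 0.26 in either JMJD3 array, and with the offset its difference for mutant was 0.99. HES4 read 8.67 with mutant, 8.12 with wild-type and 7.63 in control in its single probe set, and its call was lost with quantile normalization (log2 difference 0.99) and with the offset (0.90). Every DLL3 and HES4 probe set has shared probes, so without such probe sets neither gene was read. For wild-type against control 15 of 27 were above and 9 below, with a median of 0.07, and DLL3 alone passed 2-fold (2.35-fold). RBPJ, the DNA-binding factor of the pathway, read 9.87 with mutant, 9.16 with wild-type and 9.85 in control, which is 1.61-fold below control for wild-type. The ligand gene JAG1 read 9.67, 9.63 and 9.13, above control in both JMJD3 arrays by less than 2-fold, and the receptor gene NOTCH2 read 11.45, 11.97 and 11.78.

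**Figure D3:**
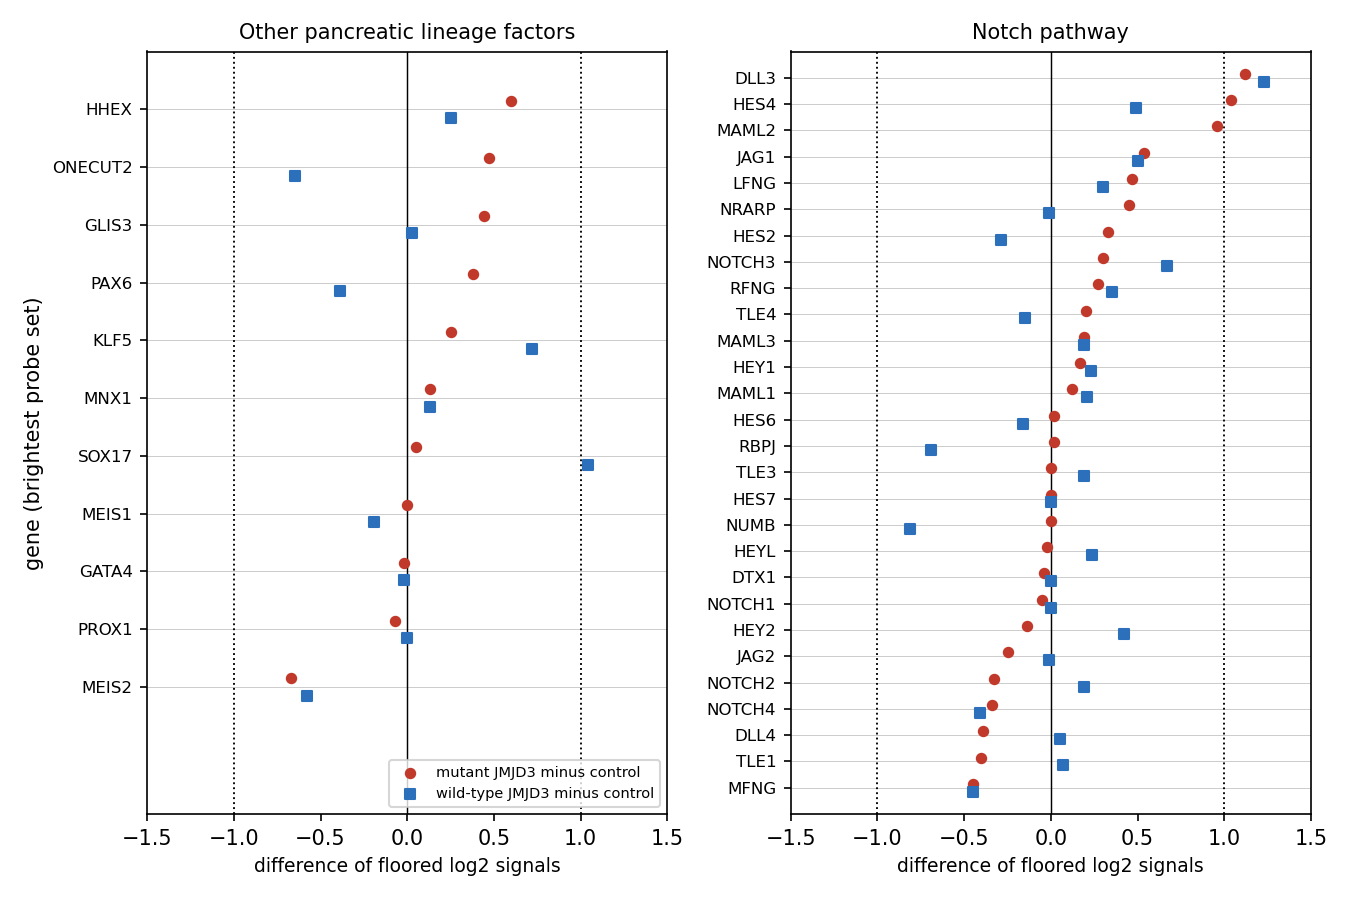
Difference of floored log2 signals from control (horizontal axis, dotted lines at 2-fold) for the measured genes (vertical axis, brightest probe set) of the other pancreatic lineage factors on the left and the Notch pathway on the right, with circles for mutant JMJD3 and squares for wild-type JMJD3. SOX17 at 1.04 with wild-type, DLL3 at 1.12 with mutant and 1.23 with wild-type, and HES4 at 1.04 with mutant are the points past 2-fold. MAML2 has no square because it was under the floor in both the wild-type and the control array.

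LIM homeobox genes other than ISL1, together with LIM cofactors, had 8 measured of 17 genes. LMO2, a LIM-only adaptor, read log2 7.47 with mutant JMJD3, 7.75 with wild-type JMJD3 and 8.75 in control, 2.43-fold under control for mutant and 2.0-fold for wild-type, which is exactly at the threshold. The wild-type call was lost with the arrays shifted to the same median (-0.98 on the log2 scale), with quantile normalization (-0.97), with the offset (-0.87) and with the median over probe sets (-0.45), which also ended the mutant call (-0.58). The only LMO2 probe set over the floor has shared probes. LHX6 read 7.67, 7.16 and 6.98, with the array order of ISL1 and no 2-fold difference.

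Partners and inhibitors of basic helix-loop-helix factors, the class of PTF1A and HES1, differed most in the wild-type array. Of the 7 measured, 3 were 2-fold or more above control with wild-type, ID2 (3.51-fold), ID3 (2.75-fold) and ID1 (2.53-fold), all inhibitors of DNA binding, and the list median was 0.51. With mutant, ID2 alone passed 2-fold (2.99-fold), with a median of 0.06. Among all measured genes 0.953% were 2-fold or more higher with wild-type and 2.98% with mutant. Every ID1, ID2 and ID3 probe set has shared probes, so without such probe sets none of these genes was read. TCF12, an E protein that pairs with such factors, read log2 10.31 with mutant, 9.38 with wild-type and 10.06 in control. Its probe set 238041_at had that order (6.74, 5.26 and 5.99). Control was on top in 215611_at (6.05, 6.05 and 6.65) and 233678_at (5.51, 4.71 and 6.09), so the direction for mutant against control is not settled.

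Duct genes, where SOX9 is known to act, had 8 measured of 18 with mutant JMJD3, 4 above and 2 below control, with a median of 0.12. KRT19 (4.53-fold) and CD24 (3.14-fold), a surface glycoprotein of progenitors, passed 2-fold, beside 2.98% of all measured genes. For wild-type, 3 of 7 measured were above and 3 below control. KRT19 (5.46-fold) and KRT7 (2.20-fold) were past 2-fold, beside 0.953% of all measured genes. With the median over its probe sets KRT19 differed from control by 0.30 for mutant and 0.47 for wild-type on the log2 scale. CD24 read log2 9.61 with mutant, 7.12 with wild-type and 7.96 in control, and KRT7 read 9.16, 10.80 and 9.66, so these duct genes did not share one order of arrays. The KRT7 probe set has shared probes, and without such probe sets its difference for wild-type against control was 0.21. Every CD24 probe set has shared probes. CFTR, SPP1 and PROM1 were under the floor in all arrays.

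Over all genes of the lists, members left out, 7 of 137 measured were 2-fold or more higher and 3 lower with mutant JMJD3 than in control, which is 5.11% and 2.19%, beside 2.98% and 0.535% of all measured genes. With wild-type JMJD3 10 of 135 were higher and 2 lower than control, 7.41% and 1.48%, beside 0.953% and 1.31%. Between the JMJD3 arrays 6 of 140 were higher and 9 lower with mutant, 4.29% and 6.43%, beside 6.2% and 2.61%. Without shared probe sets these counts fell to 3 and 0, to 4 and 1, and to 3 and 4. The lists were chosen with earlier results of these data known, so a share over that of all measured genes is not an independent result.

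**Figure D4:**
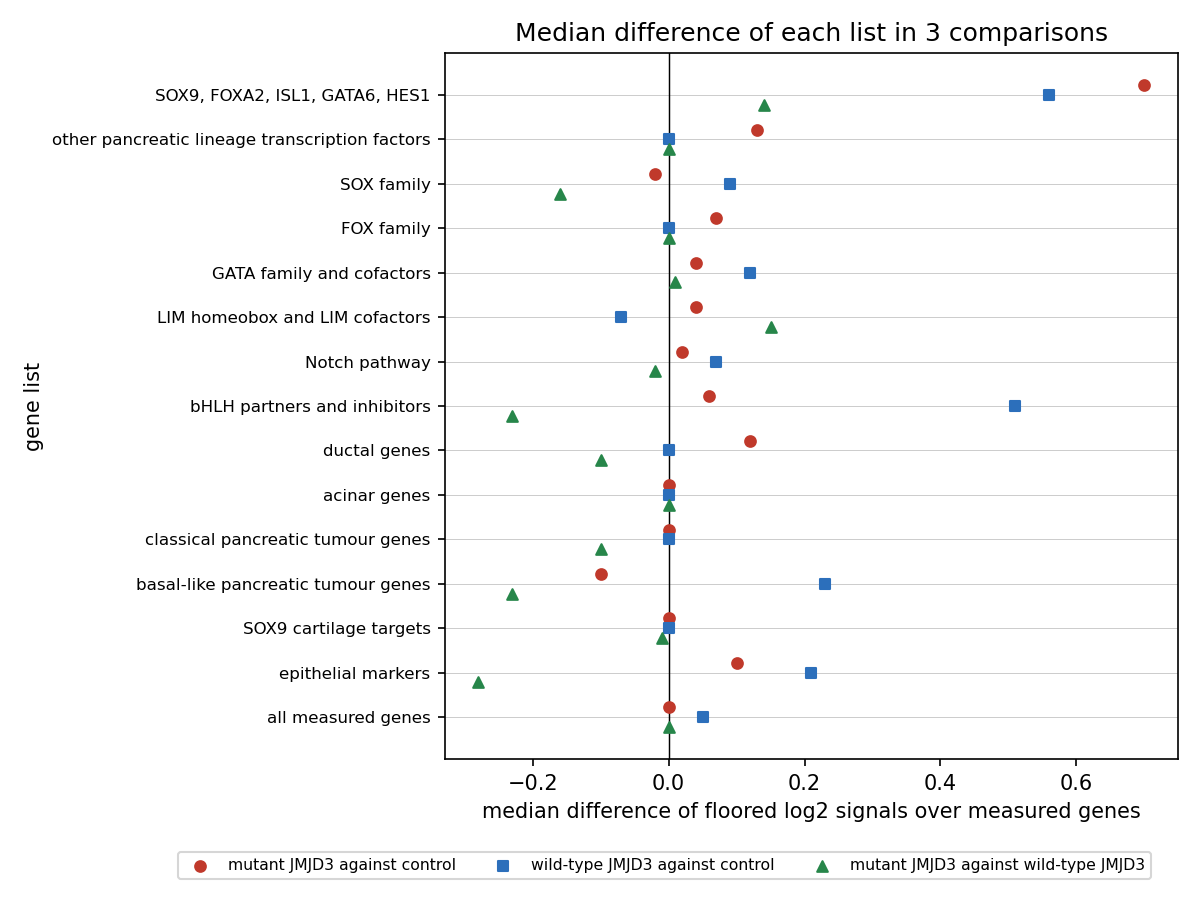
Median difference of floored log2 signals (horizontal axis) over the measured genes of the lists (vertical axis) in the 3 comparisons, with all measured genes at the bottom. The immune, endothelial, endocrine and fibroblast lists are not drawn. The 5 measured lineage factors lie at 0.70 for mutant and 0.56 for wild-type against control, and the other pancreatic lineage factors at 0.13 and 0.00. For wild-type the basic helix-loop-helix partners and inhibitors are close to the 5, at 0.51, as is the undrawn fibroblast list (3 measured genes), at 0.53.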

How the data were processed

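Total RNA from 3 PANC-1 lines was hybridised to Affymetrix arrays, per the labels' protocols. The authors deposited log2 values per probe set, and the submitters' processing notes name MAS5, with no settings. No label states how the arrays were scaled to each other. The sorted columns differed by 0.14 at most.

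By the platform annotation 41091 probe sets had 1 gene, 1801 had several and were left unnamed, and 11721 were not listed. Values were floored at the pooled 50th percentile (log2 5.48). A measured gene or probe set had at least 1 of the compared arrays over it. A gene was represented by its probe set with the highest mean. Calls were made at 2-fold, with no test. Identifiers ending in _s_at or _x_at mark shared probes. The 8 alternatives changed scaling, floor, choice of probe set and shared probe sets. The calculation was tested on simulated data.

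Named genes were the members, KDM6B, up to 4 members of each of 17 lists with the largest differences, of which a selection is described, and the 5 genes most like SOX9. Genes named from a list beyond that, such as NOTCH2, CFTR, SPP1, PROM1 and CDH1, were chosen for their role after their values were seen. The members and lists were chosen with earlier results of these data known. RefSeq promoters were those of GRCh38.p14. Software was pandas 2.3.3, numpy 2.4.6, matplotlib 3.10.9 and Python 3.11.15.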

Additional observations from a re-analysis of the deposited data

How the results depend on the processing

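SOX9 stayed above control under every alternative that measured it, from 1.92 to 2.60 on the log2 scale for mutant JMJD3 and from 1.24 to 1.83 for wild-type JMJD3, and past 2-fold in all. Leaving out shared probe sets removed SOX9 and HES1, so members past 2-fold fell to 1 for mutant (ISL1) and 0 for wild-type, and probe sets to 1 and 0. The count for mutant was also 1, SOX9, with quantile normalization and with the offset, where ISL1 read 0.96 and 0.83. Probe sets of members past 2-fold for wild-type against control fell to 1 under the higher floor (60th percentile) and the offset, which left out 202935_s_at. HES1 in wild-type against control turned to -0.43 with the median over its probe sets, whose values disagree. FOXA1 was measured only under the lower floor (40th percentile), where both JMJD3 arrays differed from control by -0.43. List genes past 2-fold numbered 10, 12 and 15 for mutant against control, wild-type against control and mutant against wild-type. With the median over probe sets the first and second became 6 and 6, without shared probe sets all became 3, 5 and 7, and with the offset the last became 9. Fewer genes were measured in those settings except the offset. The offset is added to both signals, which by arithmetic shrinks a difference between signals over the floor. The 37 differences past 2-fold of list genes gave 34 values under 2-fold and 238 past it under the alternatives that measured them, none with the sign changed. The other 55 counts and 108 differences of members kept their side of 2-fold, and for counts lay within 1.5 times. Part of this agreement was fixed in advance. The array medians and sorted columns were already close, so the scaling alternatives could change little. A lower or absent floor leaves a difference between signals over the main floor unchanged. No paired analysis was possible because each group has 1 array. Signal near the floor limits FOXA2, FOXA1 and PDX1.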

Other observations

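Genes of the classical and basal-like classes of pancreatic tumours, of which GATA6 is a known classical factor, were measured in part. Of 8 classical genes over the floor in any array, 7 were measured for mutant against control, with 3 above control, 3 below and 1 level, and 2 were 2-fold or more higher, beside 2.98% of all measured genes. AGR2, a secretory disulfide isomerase, read log2 10.56 with mutant JMJD3, 9.71 with wild-type JMJD3 and 6.30 in control at 209173_at. Its other probe set, 228969_at, read 6.99, 5.88 and 5.62 in that order, 0.26 above control with wild-type where the first was 3.41 above. TSPAN8, a tetraspanin, was at least 2.13-fold higher with mutant than in control, but its log2 difference was 0.40 when the 60th percentile served as floor. The list medians were 0.00 for both comparisons with control. Basal-like genes had a median of -0.10 for mutant and 0.23 for wild-type against control, and -0.23 for mutant against wild-type, where 4 of 9 measured, SLC2A1, KRT7, FGFBP1 and S100A2, were 2-fold or more lower, beside 2.61% of all measured genes. SLC2A1 and KRT7 were read by shared probe sets, and KRT7 without them was at -0.52. With the offset FGFBP1 (-0.94) and S100A2 (-0.76) were under 2-fold, as was SLC2A1 with the median over its probe sets (-0.74).

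Cartilage genes that SOX9 activates in chondrocytes had 8 measured of 12 and none past 2-fold. Against control, 2.98% of all measured genes were that much higher and 0.535% lower with mutant JMJD3, and 0.953% and 1.31% with wild-type JMJD3. In this list COL9A3 alone was well over the floor of log2 5.48, at 9.2 with mutant, 9.25 with wild-type and 9.2 in control. The others read 5.47 to 6.47. COL9A2 (5.51), MATN1 (5.68) and HAPLN1 (5.63) held one value in all arrays. Signal near the floor therefore limits what this list can show. With mutant JMJD3 1 was above control, 3 were below (COL11A2 at -0.34, ACAN at -0.11 and MATN4 at -0.03) and 4 were level, and with wild-type JMJD3 3 were above, 1 below and 4 level. The 1 above with mutant, COMP, a matrix glycoprotein, read log2 6.29 with mutant, 6.08 with wild-type and 5.74 in control, the array order of SOX9. The list medians were 0.00 in both comparisons with control.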
